A study of Mus musculus with 190 samples.

Results

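The Schlafen genes Slfn1, Slfn2, Slfn3, Slfn4, Slfn5, Slfn8 and Slfn9 were described in the blood of mice that develop a dermatitis. They were taken from the count table by gene name, 7 of the 55414 genes it lists, and all 7 passed the filter on low counts. The study asked how the blood transcriptome of NC/Nga mice looks before and after the onset of the dermatitis and at different severities of it. NC/Nga is an inbred strain that can develop skin disease resembling atopic dermatitis under conventional housing. All 190 libraries came from whole blood of wild-type males, and none carried a transgene or a drug. Conventionally housed mice formed 9 cohorts of 10, each bled once on day 2, 5, 9, 12, 16, 19, 23, 26 or 30 (the first sampling) and once on day 40 or 44 (the second sampling). Specific-pathogen-free (SPF) mice formed 1 control cohort of 5, bled on days 16 and 44. The labels give the age of no mouse. A visible dermatitis score was 0 in all SPF mice and on days 2, 5 and 9. It was at most 0.5 on day 12, and at the second sampling it was 3 or 4 in 40 of 90 conventional mice.

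Schlafen proteins are found in mammals and act in immune cell development, in the control of growth and in the response to viruses. Mouse members come in short forms (Slfn1 and Slfn2), intermediate forms (Slfn3 and Slfn4) and long forms with a helicase-like domain (Slfn5, Slfn8 and Slfn9). Several members are induced by type I interferons, the cytokines that cells release on viral infection. Whole blood mixes lymphocytes, monocytes, granulocytes, platelets and red cells, so that fewer cells of a type and less RNA per cell cannot be told apart in these values.

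The genes lie together on chromosome 11. In the deposited table (build GRCm39) they span chr11:82842175-83105980, which is 263.806 kb, and the order along the chromosome is Slfn5, Slfn9, Slfn8, Slfn2, Slfn1, Slfn4 and Slfn3. Slfn8 and Slfn9 are on the minus strand and the other 5 on the plus strand. Some members share sequence. Of the 50-base windows of the Slfn8 transcripts, 9.30% also occur in Slfn9 and 10.1% in the pseudogene Slfn10-ps between Slfn8 and Slfn2, and the count of Slfn8 was a whole number in only 3 of 190 libraries. For Slfn9 that held in 8 libraries, while for Slfn3, which shares 7.39% of its windows with Slfn4, the count was not whole in 19. The values of Slfn8, Slfn9 and Slfn3 are uncertain to that extent, while counts of Slfn1 and Slfn2 were whole in every library and those of Slfn4 and Slfn5 in all but 1. The antisense gene Slfn5os had at most 2 counts in any library.

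The bases before each transcription start are printed because 3 of the genes, Slfn4, Slfn1 and Slfn2, moved together in the values below and Slfn8 and Slfn9 moved differently. They come from RefSeq on build GRCm38.p6, another build than that of the count table, and read 5′ to 3′ on the strand of the gene. All 7 members matched an entry by symbol. Capitals mark CCAGGAAGT or its reverse complement, which contains the GGAA core of the sites that ETS-family transcription factors bind, or the core of the interferon-stimulated response element on either strand, which is GAAA, any 2 bases and GAAA. For Slfn5 only the match with 10 bases on each side is printed, and for the others the last 100 bases before the start.
Slfn4 (chr11:83175086-83175185, plus strand): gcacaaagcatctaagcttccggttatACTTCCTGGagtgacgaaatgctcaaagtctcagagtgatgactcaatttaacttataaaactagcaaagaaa
Slfn1 (chr11:83116720-83116819, plus strand): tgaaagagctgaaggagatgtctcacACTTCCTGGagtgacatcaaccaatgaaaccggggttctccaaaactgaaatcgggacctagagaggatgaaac
Slfn2 (chr11:83065012-83065111, plus strand): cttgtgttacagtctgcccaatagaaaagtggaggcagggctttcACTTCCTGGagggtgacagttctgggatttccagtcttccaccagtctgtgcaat
Slfn3 (chr11:83191230-83191329, plus strand): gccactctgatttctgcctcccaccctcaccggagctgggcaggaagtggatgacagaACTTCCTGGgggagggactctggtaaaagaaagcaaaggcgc
Slfn5 (chr11:82951937-82951966, plus strand): ccttcaaagtGAAAAAGAAAaaaaaaaaag
Slfn8 (chr11:83020811-83020910, minus strand): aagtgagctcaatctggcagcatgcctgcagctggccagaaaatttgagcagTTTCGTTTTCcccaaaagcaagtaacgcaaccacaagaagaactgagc
Slfn9 (chr11:82991831-82991930, minus strand): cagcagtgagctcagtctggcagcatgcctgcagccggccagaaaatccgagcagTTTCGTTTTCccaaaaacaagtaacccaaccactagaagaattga

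The short and intermediate members Slfn1, Slfn2, Slfn3 and Slfn4 held ACTTCCTGG within 74 bases of the start, and the long members Slfn5, Slfn8 and Slfn9 held none. For Slfn1 alone, the bases after the start were not found in its transcripts, so its distance is less certain. The long members held the interferon-stimulated response element core and the other 4 did not. The printed bases of Slfn8 and Slfn9 are largely alike, Slfn1 and Slfn4 share the bases just after ACTTCCTGG, and the match of Slfn5 runs into a stretch of A. The matches are therefore not independent, and their number is not set against the shares of promoters below. In the 250 bases before the start, CCAGGAAGT occurred on either strand in 230 of 32851 RefSeq promoters, which is 0.700%, and the response element core in 978, which is 2.98%. TTCNNNGAA, the core of the gamma-activated site, occurred in 2306 promoters (7.02%) and in none of the 7 members. The motif CCAGGAAGT was chosen after these sequences had been read, and the 3 motifs do not overlap each other in any member. A match is a description of the letters in this window only. Slfn3 holds the same match as Slfn1, Slfn2 and Slfn4 but was not called between the samplings, where those 3 were. It was called rising over the days of the first sampling. Of the long members, Slfn5 was called higher at the second sampling, and Slfn8 and Slfn9 were not called. Whether a match bears on the levels was not tested.

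Between genes, levels were compared per length in the deposited TPM, which are read counts scaled by gene length and by library. Slfn2, whose loss of function in mice disturbs the quiescence of T cells and monocytes, had the highest median over all 190 libraries at 20.4 TPM. Slfn4, a myeloid member that interferons induce, followed at 14.3 TPM, then Slfn1 at 5.32, Slfn5 at 2.68, Slfn9 at 1.56, Slfn8 at 1.22 and Slfn3 at 0.304 TPM. Within a library the order of neighbours mostly held: Slfn1 was above Slfn5 in all but 7 libraries, Slfn5 above Slfn9 in all but 4, Slfn9 above Slfn8 in all but 7 and Slfn8 above Slfn3 in all 190. Slfn2 and Slfn4 changed places with the group. Slfn4 was above Slfn2 in 36 of 90 libraries of the second sampling, in 9 of 90 of the first sampling and in 0 of 10 SPF libraries. Slfn4 was also above Slfn1 in 89 of 90 libraries of the second sampling but in only 4 of 10 SPF libraries.

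Within a gene, levels are given as CPM, which are read counts scaled by library size after TMM normalisation. Slfn4 had by far the widest range, with 14.5 CPM in the lowest library (cohort 2 on day 5) and 2515 CPM in the highest (cohort 2 on day 40), a ratio of 173.8, which was 85.9 for the next highest library (1243 CPM). Ratios of highest to lowest were 10.6 for Slfn1, 7.75 for Slfn3, 6.08 for Slfn2, 3.93 for Slfn5, 3.47 for Slfn8 and 3.17 for Slfn9. Between group means, Slfn4 was 20.7 times as high in the highest of the 18 conventional groups as in the lowest, Slfn1 4.47 times, Slfn2 1.99 times and Slfn5 1.70 times. For Slfn3, Slfn8 and Slfn9 this ratio was at most 1.44. Among conventional groups, cohort 1 on day 2 had the lowest mean for Slfn1, Slfn2, Slfn3, Slfn4 and Slfn5. The SPF mice of day 16 had lower means still for Slfn3, 1.92 ± 0.43 CPM against 1.97 ± 0.50 in that cohort, and for Slfn5, 35.8 ± 6.2 CPM against 38.7 ± 4.5 (SD, n = 5 and 10).

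**Figure D1:**
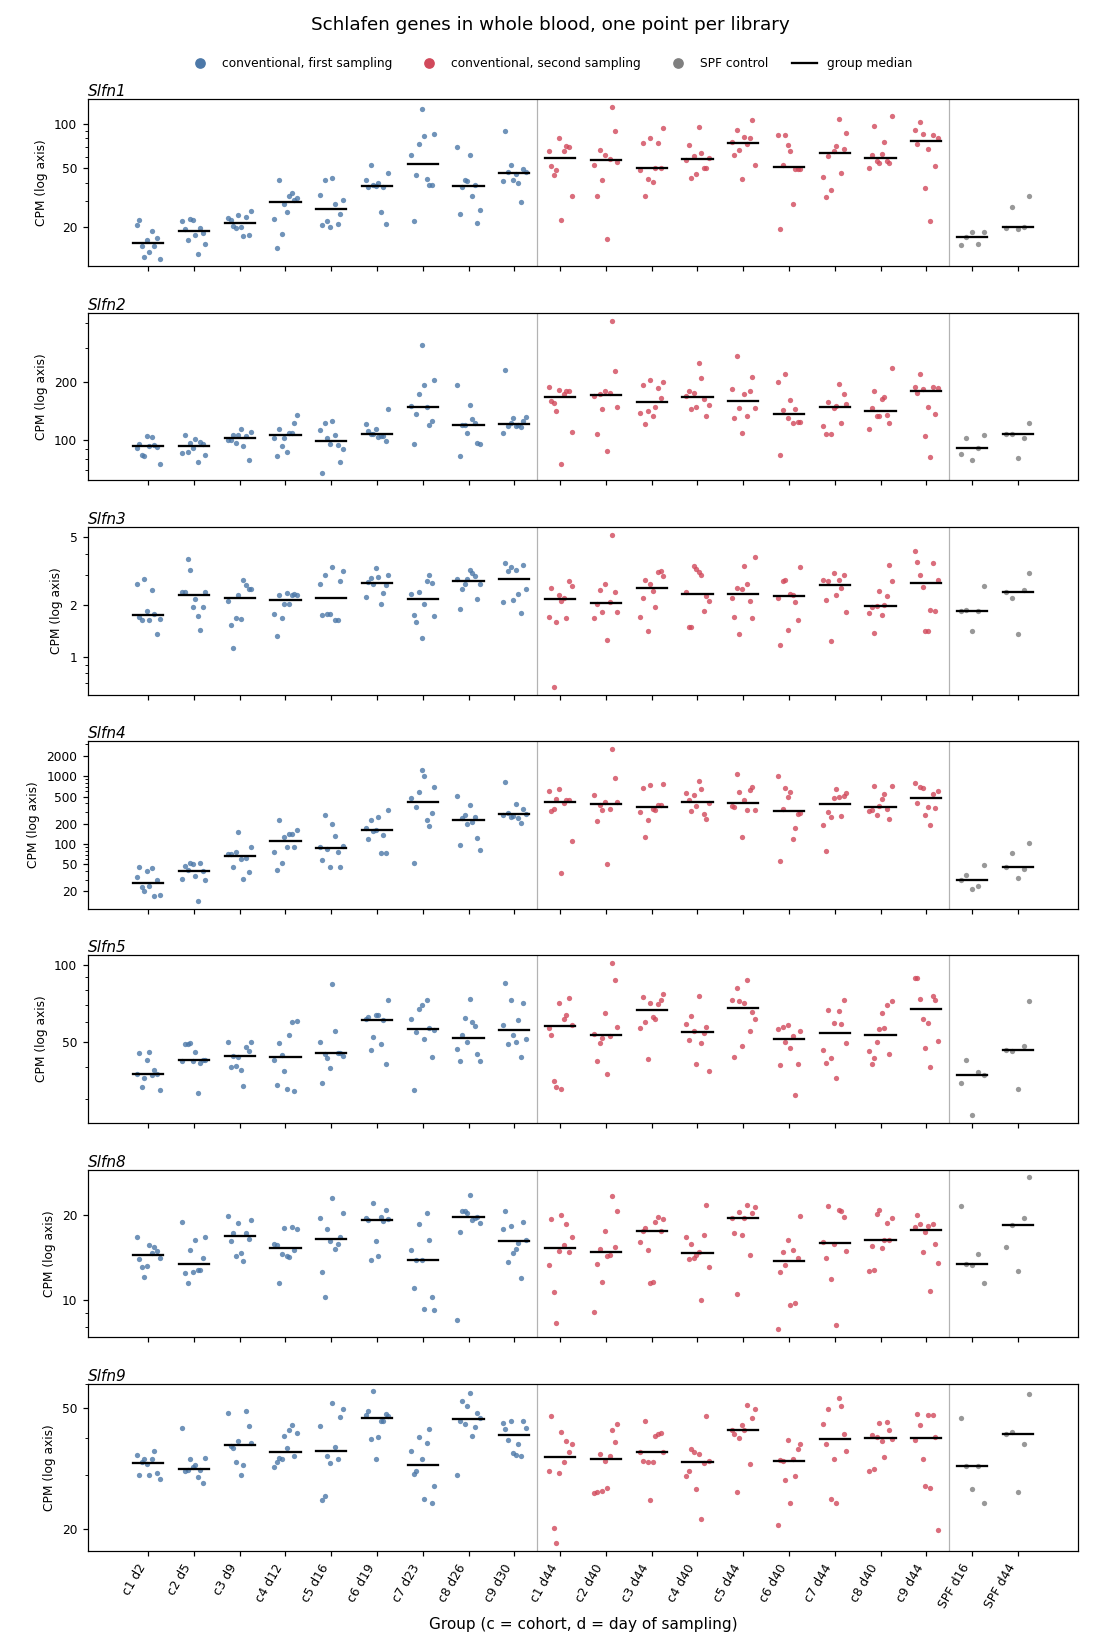
CPM (log axes) of each Schlafen gene in every library, by group, with conventional first-sampling groups at the left in order of day, second-sampling groups in the middle and SPF controls at the right. Lines mark group medians, and Slfn4 spans 14.5 to 2515 CPM while Slfn9 spans 17.9 to 56.8 CPM.

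Sequencing depth was 21444129 to 71967299 counts per library, with a median of 36448181. The share of counts on globin genes had a median of 3.58% in cohorts 1 to 4, 6.84% in cohort 5 and 7.83% in cohorts 6 to 9, and that on mitochondrial rRNA 6.92%, 14.7% and 15.4%. Cohorts 6 to 9 are also those first sampled from day 19 on, so the linear trend over days is given within both sets of cohorts as well. The differences of days 19 to 30 from day 2 cross these sets. Among SPF libraries, replicate 3 of day 16 stood apart with 45.3% globin counts. One library, replicate 8 of cohort 2 on day 40 with a score of 3, had the highest value of Slfn1, Slfn2, Slfn3, Slfn4 and Slfn5 of all 190. Markers of T cells, B cells, NK cells, neutrophils, monocytes, platelets and red cells were detected in every group, as whole blood would hold.

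Over the days of the first sampling, Slfn4 and Slfn1 climbed most, and all 7 members rose, though Slfn8 was called with TMM scaling and not with RLE size factors or DESeq2. Each day was 1 cohort, so day and cohort cannot be told apart here. Slfn4 ran between 17.1 and 46.4 CPM on day 2 with a median of 26.8, and its medians were 40.7, 66.9, 109.1, 87.3, 159.9, 414, 227 and 273.5 CPM on days 5, 9, 12, 16, 19, 23, 26 and 30. All libraries of days 19, 23, 26 and 30 lay above the highest library of day 2, with lowest values of 74.5, 52.1, 80.4 and 200.8 CPM. Against day 2, Slfn4 was first called on day 9, at a log2 difference of 1.24 ± 0.35 (SE, 10 mice on each day, edgeR quasi-likelihood test, adjusted p = 0.032). On that day every mouse still had a score of 0. Replicate 5 of that day had 150.2 CPM against 30.4 to 89.4 CPM in the others, and no fit without it is given. The share of all genes called against day 2 was 0.143%, 2.69%, 12.3%, 12.5%, 30.2%, 36.6%, 31.1% and 37.4% on the 8 later days in order. The largest difference of Slfn4 was on day 23, at 4.12 ± 0.39 (edgeR, adjusted p = 1.1e-13).

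Slfn1, which slows the growth of T cells when they are made to express it, ran between 12.3 and 22.4 CPM on day 2 with a median of 15.7. Its medians on the later days were 19.0, 21.4, 29.8, 26.7, 38.4, 53.7, 38.4 and 46.6 CPM, in the same order of days. It was first called on day 12, 0.78 ± 0.19 above day 2 on the log2 scale (edgeR, adjusted p = 0.0036), and peaked on day 23 at 1.91 ± 0.20 (adjusted p = 9.3e-13). Slfn2 was called later, from day 23 on, when its libraries ran between 95.6 and 309.5 CPM with a median of 148.8, against 75.7 to 105.04 CPM and a median of 92.96 on day 2. Its log2 difference was 0.85 ± 0.12 on day 23, 0.41 ± 0.12 on day 26 and 0.53 ± 0.12 on day 30 (edgeR, adjusted p = 1.7e-08, 0.0066 and 0.00030). Day 23 was thus the highest of the 9 days for each of the 3 genes.

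Of the other members, Slfn5 was also called on day 23, while Slfn8, Slfn9 and Slfn3 were not. Slfn5, whose human counterpart is induced by interferon, was called on days 19, 23, 26 and 30, with log2 differences from day 2 between 0.46 and 0.62. Slfn8 was called above day 2 on days 19 and 26, and Slfn9 on days 19, 26 and 30 (0.31 ± 0.10 on day 30), but neither on day 23, when their log2 differences were -0.06 ± 0.12 and 0.02 ± 0.10. Slfn9 had 24.3 to 42.6 CPM on day 23 with a median of 32.5, close to its 29.2 to 36.1 CPM on day 2, while on day 19 it had 34.1 to 56.8 CPM with a median of 46.2. Slfn3, studied chiefly in T cells and gut epithelium, was near 2 CPM throughout and was called on days 19, 26 and 30, again not on day 23.

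As a linear trend over the 90 libraries of the first sampling, the log2 rise per 10 days was 1.41 ± 0.11 for Slfn4 and 0.64 ± 0.06 for Slfn1 (SE, edgeR quasi-likelihood test, adjusted p = 3.0e-18 and 2.0e-16). It was 0.24 ± 0.04 for Slfn2, 0.21 ± 0.03 for Slfn5, 0.14 ± 0.04 for Slfn3, 0.12 ± 0.03 for Slfn9 and 0.08 ± 0.03 for Slfn8. All 7 were called rising, among them Slfn8 with an adjusted p of 0.042 that RLE scaling took to 0.12 (slope 0.06) and leaving out replicate 2 of cohort 9 on day 30 to 0.066, beside 26.5% of all genes called rising and 52.3% called in either direction. All 7 also differed among the 9 days in a test for any difference, as did 57% of all genes. Within cohorts 1 to 4 (days 2 to 12) the slopes of Slfn4, Slfn1, Slfn2 and Slfn9 were called, at 1.97 ± 0.25, 0.74 ± 0.12, 0.22 ± 0.07 and 0.26 ± 0.08. Within cohorts 6 to 9 (days 19 to 30) none was called, and the slope of Slfn4 was 0.43 ± 0.44 (edgeR, adjusted p = 0.72). With the globin and mitochondrial rRNA shares as covariates, 4 members stayed called and the slope of Slfn4 was 1.27 ± 0.16, while those of Slfn3, Slfn8 and Slfn9 were no longer called. What part of all genes was called within each set of cohorts or with these covariates is not given, so these counts are not compared.

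At the second sampling, Slfn4, Slfn1, Slfn2 and Slfn5 were higher than at the first, and Slfn3, Slfn8 and Slfn9 were not called. Slfn4 ran between 36.9 and 2515 CPM at the second sampling with a median of 375, against 14.5 to 1243 CPM and a median of 95.4 at the first. The ranges overlap widely, since the first sampling spans days 2 to 30. Over 180 libraries with cohort as a covariate its log2 difference was 1.84 ± 0.18 (SE, edgeR quasi-likelihood test, adjusted p = 3.4e-18). Slfn1 had a median of 61.4 CPM (16.8 to 130.8) at the second sampling and of 27.6 CPM (12.3 to 126.97) at the first, a log2 difference of 1.02 ± 0.08. Slfn2 had a median of 155.3 CPM at the second sampling and of 105.9 CPM at the first (0.52 ± 0.06), and Slfn5 of 57.1 and 46.9 CPM (0.24 ± 0.05). For Slfn3, Slfn8 and Slfn9 the log2 differences were 0.01 ± 0.06, -0.01 ± 0.05 and -0.07 ± 0.04, and Slfn9 was called lower with RLE scaling (-0.11, adjusted p = 0.024), with DESeq2 (-0.11, adjusted p = 0.021) and without cohort 7 (-0.11, adjusted p = 0.020). Thus 4 of 7 members were called higher, beside 31.4% of all genes called higher, 30.6% called lower and 62.1% called in either direction.

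The size of that change differed among the cohorts, which had first been bled on different days. Slfn4 was higher at the second sampling by 3.69 ± 0.42, 3.96 ± 0.42, 2.60 ± 0.40, 2.01 ± 0.39, 2.16 ± 0.39 and 1.23 ± 0.38 on the log2 scale in cohorts 1 to 6 (SE, 10 mice a sampling), and each of these was called. In cohorts 7, 8 and 9, first bled on days 23, 26 and 30, the values were -0.45 ± 0.37, 0.85 ± 0.38 and 0.54 ± 0.38 and none was called. Slfn1 was called in cohorts 1 to 5, at 1.08 to 1.76, and in cohort 8 at 0.79 ± 0.22, where the call was lost without the filter on low counts (adjusted p = 0.068). Slfn2 was called in cohorts 1 to 5, at 0.69 to 0.98, and Slfn5 in cohorts 1, 2, 3 and 5, at 0.44 to 0.58. An F test added after the data were seen found that the change differed among the 9 cohorts for Slfn4, Slfn1, Slfn2, Slfn5 and Slfn9 (edgeR, adjusted p = 3.7e-12, 8.7e-07, 3.8e-05, 0.0014 and 0.0074), beside 35.3% of all genes.

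Slfn8 and Slfn9 fell in 1 cohort. In cohort 6, Slfn9 ran between 20.6 and 39.3 CPM on day 40 with a median of 33.5, against 34.1 to 56.8 CPM and a median of 46.2 on day 19, a log2 difference of -0.50 ± 0.12 (edgeR, adjusted p = 0.0027). Slfn8 had 7.87 to 19.8 CPM on day 40 and 13.8 to 22.2 CPM on day 19, at -0.47 ± 0.14 (adjusted p = 0.0091). Neither gene was called in another cohort, and 9.69% of all genes were called lower in cohort 6. Per cohort, the members called numbered 4, 4, 4, 3, 4, 3, 0, 1 and 0 in cohorts 1 to 9, beside 39.1%, 47.1%, 25.3%, 30.9%, 14.8%, 21.1%, 2.66%, 1.47% and 7.28% of all genes.

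**Figure D2:**
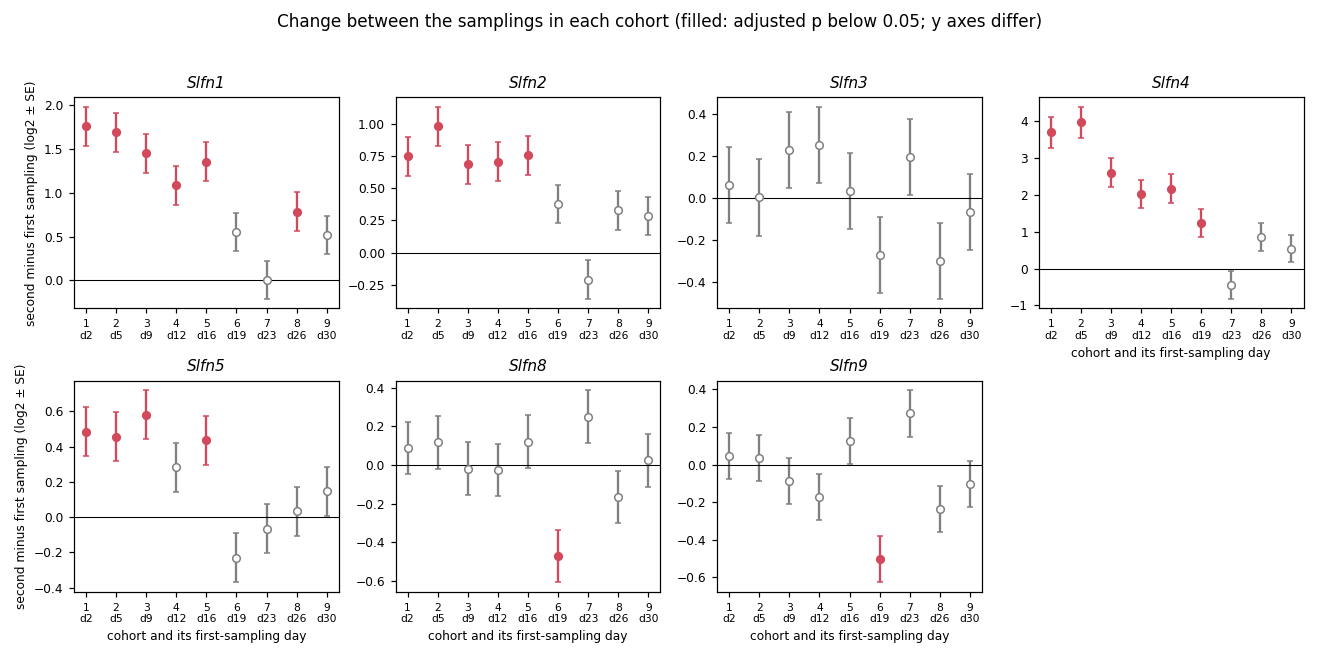
Log2 change (second minus first sampling, ± SE) of each gene in each of the 9 conventional cohorts, with the day of the first sampling under the cohort number and filled points for an adjusted p under 0.05. For Slfn4 the change is 3.69 in cohort 1 and 0.54 in cohort 9, and for Slfn8 and Slfn9 only cohort 6 is filled.

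By dermatitis score at the second sampling, Slfn4 was lowest in mice with a score of 0 and highest in those with 3 or 4. Slfn4 had a median of 117.6 CPM (36.9 to 666) in 7 mice with a score of 0, 371 CPM (332 to 686) in 5 with 0.5, 313 CPM (51.1 to 518) in 11 with 1, 308 CPM (128.3 to 712) in 27 with 2 and 554 CPM (227 to 2515) in 39 with 3, and the 1 mouse with 4 had 733 CPM. The ranges of neighbouring scores overlapped, and the medians from 0.5 to 2 did not climb. With cohort as a covariate the log2 slope was 0.46 ± 0.09 per score point over 90 libraries (SE, edgeR quasi-likelihood test, adjusted p = 3.5e-05). Slfn1 and Slfn2 also rose with the score, by 0.19 ± 0.06 and 0.14 ± 0.04 per point (adjusted p = 0.0058 and 0.0051). Slfn2 had medians of 136.01, 144.5, 145.5 and 171.3 CPM in the 4 classes of 0 or 0.5, 1, 2, and 3 or 4. Mice with a score of 2 or more were also set against those with 1 or less, and 2 members were called, Slfn4 at 0.78 and Slfn9 at -0.23 (edgeR, adjusted p = 0.0060 and 0.020). No share of all genes is given for that fit, so the count cannot be set against it.

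Slfn8 and Slfn9 fell with the score at the second sampling, by 0.09 ± 0.04 and 0.11 ± 0.03 per point on the log2 scale (edgeR, adjusted p = 0.041 and 0.011). Slfn9 had medians of 39.1, 41.2, 36.8 and 33.7 CPM in the 4 score classes from low to high, with ranges that overlapped. Slfn3 and Slfn5 were not called, at -0.02 ± 0.05 and 0.05 ± 0.04. In all, 3 members were called rising and 2 falling with the score, beside 18.9% and 17.7% of all genes, or 36.6% in either direction. With the globin and mitochondrial rRNA shares as covariates the slopes of Slfn8 and Slfn9 were both -0.05 and no longer called. Red cell markers moved beside them, with 10 of 10 called rising with the score, and the part of those cells in the values was not tested. Within cohorts 1 to 4 of the second sampling 3 members were called, with Slfn4 at 0.58, and within cohorts 6 to 9 none, with Slfn4 at 0.36 (edgeR, adjusted p = 0.18). What part of all genes was called within each set is not given, so these counts are not compared.

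At the first sampling, over the 60 libraries of days 12 to 30, the same 3 genes rose with the score. Slfn4 had a median of 131.96 CPM (40.8 to 479) in 37 mice with a score of 0 or 0.5, 221 CPM (80.4 to 588) in 12 mice with 1, 399.7 CPM (195 to 1243) in 10 mice with 2, and 252 CPM in the 1 mouse with 3. The log2 slope was 0.63 ± 0.17 per point for Slfn4, 0.44 ± 0.09 for Slfn1 and 0.25 ± 0.06 for Slfn2 (edgeR, adjusted p = 0.010, 0.0019 and 0.0064). The other 4 members were not called, and 10.0% of all genes were, 6.19% rising. The slopes of the second and the first sampling were not shown to differ: the differences were -0.17 ± 0.19 for Slfn4, -0.25 ± 0.12 for Slfn1 and -0.11 ± 0.08 for Slfn2, none called by edgeR, as for 0% of all genes (2347 had an unadjusted p under 0.05).

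**Figure D3:**
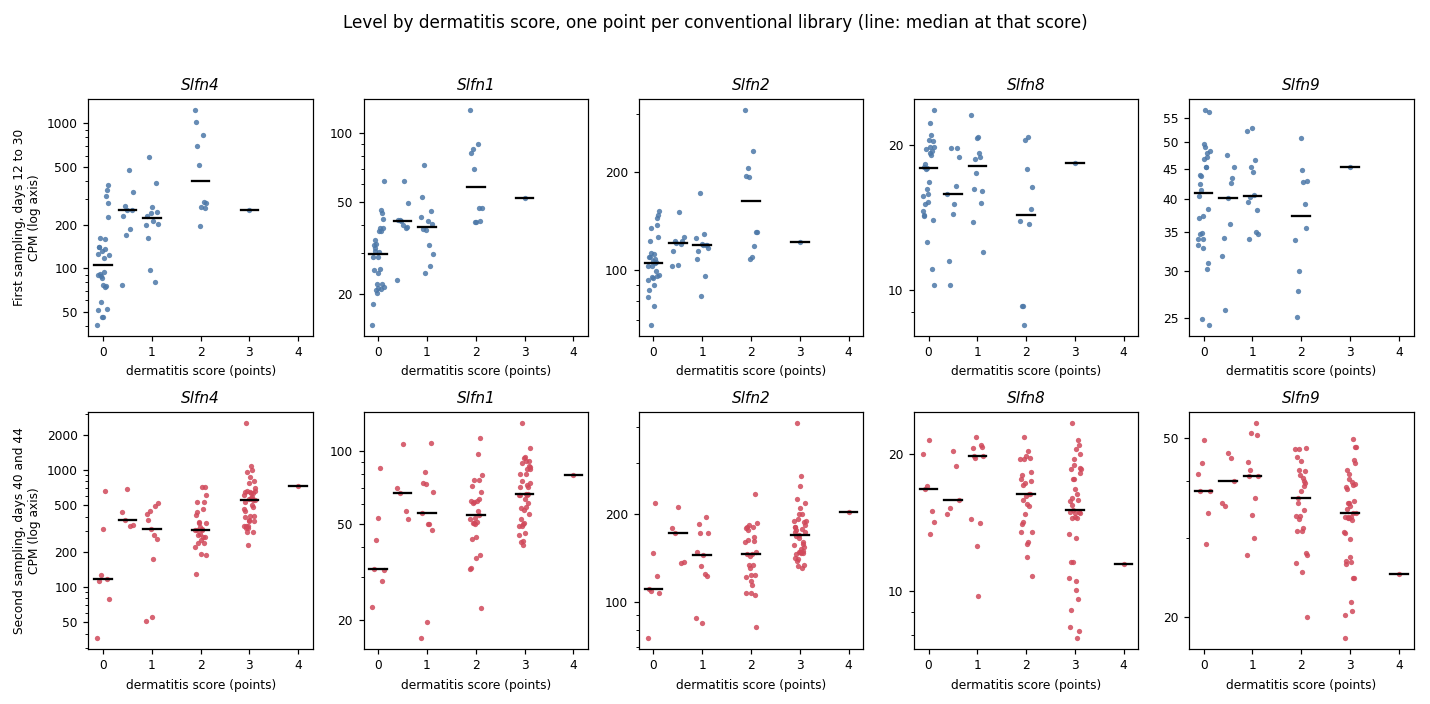
CPM (log axes) of 5 Schlafen genes against the dermatitis score in points, with each point a conventional library and lines at the median of each score, for days 12 to 30 of the first sampling (top) and the second sampling (bottom). At the second sampling Slfn4 is highest at the scores of 3 and 4, and Slfn9 lies between 17.9 and 54.03 CPM.

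Conventional mice were compared with SPF mice of the same day, and since the SPF mice were 1 cohort, housing and cohort cannot be told apart. On day 44, Slfn4 ran between 36.9 and 1083 CPM in 50 conventional mice with a median of 386, while the 5 SPF mice had 46.1, 74.2, 31.1, 43.1 and 105.03 CPM. Of the conventional mice 48 lay above every SPF mouse. The log2 difference was 2.85 ± 0.47 (SE, edgeR quasi-likelihood test, adjusted p = 2.9e-05). Slfn1 had 22.3 to 108.2 CPM in conventional mice with a median of 66.2, and 19.9, 27.6, 19.4, 20.2 and 32.8 CPM in SPF mice, with 45 of 50 conventional mice above all SPF mice and a log2 difference of 1.41 ± 0.27 (adjusted p = 0.00014). Slfn2 had a median of 157.01 CPM in conventional mice and 107.1 CPM in SPF mice (0.60 ± 0.18, adjusted p = 0.012). The call of Slfn2 was lost without SPF replicate 3 (0.52, adjusted p = 0.069). Slfn3, Slfn5, Slfn8 and Slfn9 were not called, so 3 of 7 members were, beside 19.7% of all genes, 10.7% called higher. With the 8 conventional mice of day 44 that had a score of 0 or 0.5 alone, no member was called and the log2 difference of Slfn4 was 2.15 (edgeR, adjusted p = 0.19). No share of all genes is given for that fit.

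On day 16, when 8 of 10 conventional mice had a score of 0, no member was called by edgeR, beside 0.473% of all genes. Slfn1 ran between 20.1 and 43.4 CPM in the conventional mice of cohort 5, while the SPF mice had 15.2, 17.3, 18.7, 15.5 and 18.6 CPM. All 10 conventional mice lay above all 5 SPF mice, and the log2 difference was 0.75 ± 0.20 (edgeR, adjusted p = 0.066). Slfn4 had 45.8 to 268 CPM with a median of 87.3 in the conventional mice, and 29.7, 34.8, 21.4, 24.3 and 49.8 CPM in the SPF mice, at 1.78 ± 0.45 (adjusted p = 0.064). DESeq2, run as an alternative, called both (adjusted p = 0.011 for Slfn1 and 0.0077 for Slfn4), and with the globin and mitochondrial rRNA shares as covariates edgeR called Slfn4 at 2.03 (adjusted p = 0.037). The share of all genes called in those alternative fits is not given, so these calls are not set against 0.473%. Slfn1, Slfn4 and Slfn5 (0.45 ± 0.18) had an unadjusted p under 0.05 by edgeR, and 2305 of all genes had.

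Between day 16 and day 44 the conventional mice of cohort 5 gained in Slfn4 by 2.16 ± 0.35, in Slfn1 by 1.35 ± 0.16, in Slfn2 by 0.76 ± 0.14 and in Slfn5 by 0.44 ± 0.15 on the log2 scale, the last with a call that RLE scaling took away (adjusted p = 0.058). The median share of globin counts in cohort 5 was 7.03% on day 44 and 3.72% on day 16, and that of mitochondrial rRNA 15.9% and 10.1%, while SPF mice had 3.40% and 3.78%, and 7.47% and 7.30%. With both shares as covariates Slfn4 was at 2.39 ± 0.39, Slfn1 at 1.32 ± 0.18 and Slfn2 at 0.92 ± 0.15, all called, and Slfn5 was not called. Without those covariates, these 4 of 7 members were called by edgeR in the fit of cohort 5 and the SPF mice, beside 12.4% of all genes, 8.49% called higher. In SPF mice none was called, as for 0% of all genes, and the changes were 0.91 ± 0.48 for Slfn4, 0.49 ± 0.22 for Slfn1 and 0.17 ± 0.19 for Slfn2. The difference between the 2 changes was 1.26 ± 0.58 for Slfn4, 0.86 ± 0.27 for Slfn1 and 0.59 ± 0.23 for Slfn2 and was not called for any member (edgeR, adjusted p = 0.45, 0.30 and 0.38), again as for 0% of all genes. At an unadjusted p under 0.05 there were 1031 genes for the SPF change and 1881 for the difference.

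**Figure D4:**
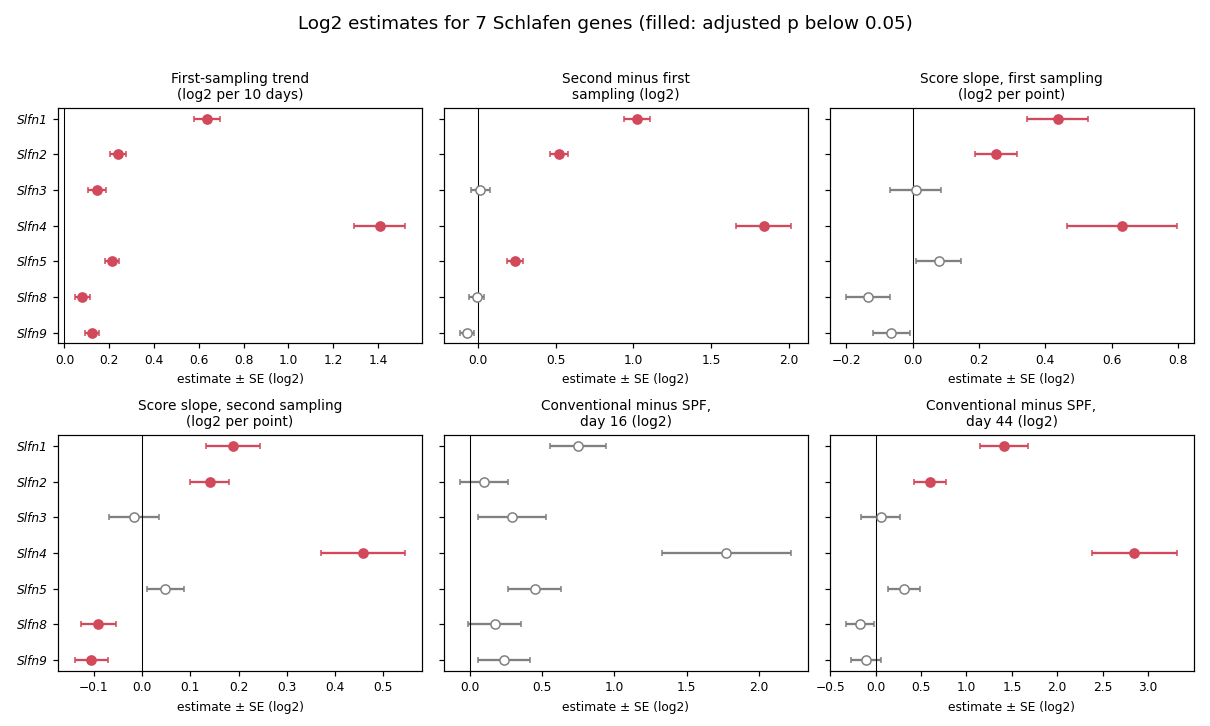
Log2 estimates ± SE of the 7 genes in 6 comparisons, filled where the adjusted p is under 0.05. Slfn4, Slfn1 and Slfn2 are filled and above 0 in every panel but that of day 16, while Slfn8 and Slfn9 are filled below 0 in the score slope of the second sampling.

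Markers of neutrophils, the most abundant granulocytes of blood, moved beside Slfn4, Slfn1 and Slfn2. The summed level of 14 neutrophil markers ran between 438 and 26480 CPM at the second sampling with a median of 5083, against 314 to 19728 CPM and a median of 1600 at the first, and between 356 and 1560 CPM in SPF mice of day 16. None of the 14 was at 0 in any group. Ly6g (2.56 ± 0.28), Steap4 (2.55 ± 0.23) and Mmp8 (2.08 ± 0.22) differed most between the samplings. All 14 were called higher in the trend over days, at the second sampling, with the score at either sampling and in conventional mice on day 44. Of all genes, 26.5% were called higher in the trend, 31.4% at the second sampling and 10.7% on day 44. With the score it was 18.9% at the second sampling and 6.19% at the first. B cell markers fell, with 12 of 12 called lower at the second sampling and in conventional mice on day 44. Between the samplings 30.6% of all genes were called lower, and on day 44 19.7% were called in either direction. Within groups, Pearson's r of log2 CPM with the mean of the neutrophil markers over 190 libraries was 0.95 for Slfn4, 0.86 for Slfn1 and 0.82 for Slfn2, and it was -0.26 for Slfn8 and -0.27 for Slfn9. Spearman's rho was 0.93, 0.83 and 0.78 for the first 3, and r was 0.95, 0.85 and 0.80 without the 2 libraries farthest from the median of the markers. These values describe libraries that share a scaling and are given with no test.

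Values were also fitted with the mean levels of T cell, B cell, neutrophil and erythroid markers as covariates. The trend of Slfn4 over days was then 0.23 ± 0.05 per 10 days (edgeR, adjusted p = 0.0012) and that of Slfn1 0.06 ± 0.04 (adjusted p = 0.27), while the slope of Slfn2 turned to -0.09 ± 0.03 (adjusted p = 0.029). In that fit Slfn8 and Slfn9 still rose over days, at 0.15 ± 0.04 and 0.16 ± 0.04. Between the samplings only Slfn1 was called, and no member was called for the score or on day 44. Shares of all genes called are not given for these fits. Whether the cells present or the RNA in each cell changed was not tested.

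Slfn4, Slfn1 and Slfn2 also had an r within groups of 0.84, 0.70 and 0.76 with genes of interferon receptors and signalling. With type I interferon-stimulated genes it was 0.72, 0.54 and 0.60. The other members had their highest r with other lists. Slfn5 had 0.72 within groups with monocyte markers and 0.41 with neutrophil markers (0.94 and 0.83 over group means). Slfn8 and Slfn9 had their highest r within groups with genes of naive and quiescent T cells, 0.56 and 0.70, next to 0.53 for both with B cell markers. With T cell markers it was 0.33 and 0.36, with NK cell markers 0.40 and 0.44 and with eosinophil markers 0.46 and 0.52. With red cell markers the r was -0.58 for Slfn8 and -0.68 for Slfn9. Slfn3 had no r above 0.36 with any list. Between members, r within groups was 0.90 for Slfn4 with Slfn1, 0.88 for Slfn1 with Slfn2 and 0.83 for Slfn8 with Slfn9, which share reads. It was -0.09 for Slfn4 with Slfn8 and -0.11 for Slfn4 with Slfn9. Slfn5 had 0.57 with Slfn4 and 0.47 with Slfn8 within groups, and 0.87 and 0.37 over group means.

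**Figure D5:**
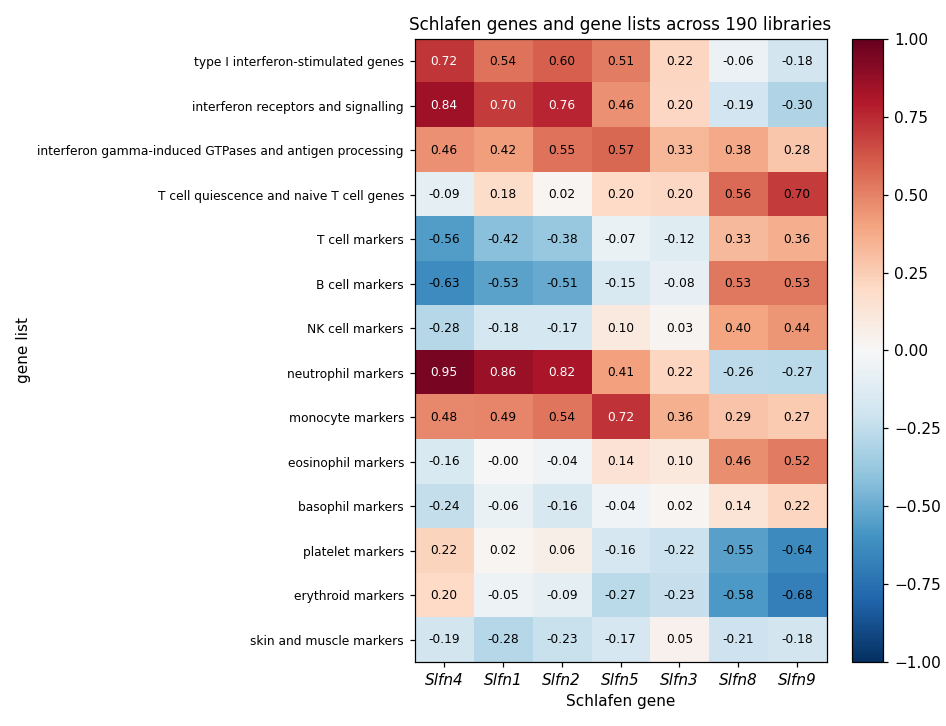
Pearson's r within groups between log2 CPM of each Schlafen gene and the mean log2 CPM of gene lists over 190 libraries, written in each cell and coloured by sign and size. Slfn4, Slfn1 and Slfn2 have their highest r with neutrophil markers (0.95, 0.86 and 0.82), and Slfn9 has 0.70 with naive and quiescent T cell genes.

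Genes with the most similar pattern to each member were taken as the 3 with the highest r within groups among 7039 genes with a mean of at least 5 CPM. For Slfn4 they were Lilrb4a, Ifit1bl2 and Lilr4b, each at r = 0.94. For Slfn1 they included Tlr13 at 0.93 and Fgd4 at 0.92, and for Slfn2 Sat1 at 0.92 and Glipr1 at 0.90. Slfn5 was nearest to Ifi204, Ifi211 and Ifi44 at 0.78 to 0.82, and Slfn3 to Ifi204, Slfn5 and Parp14 at 0.44 to 0.47. Slfn9 was nearest to Gvin-ps6, Slfn8 and Malt1 at 0.83 to 0.84, and Slfn8 to Slfn9, Gm43197 and Gvin-ps6 at 0.73 to 0.83.

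Other genes of the interferon pathway were set beside the members from lists that hold none of them. Of 30 type I interferon-stimulated genes, 24 rose and 1 fell over the days of the first sampling, beside 26.5% and 25.8% of all genes, with a median log2 slope of 0.24 per 10 days against 0.00 over all genes. The steepest were Oasl2 (1.08 ± 0.09), Oas2 (0.83 ± 0.07) and Rtp4 (0.79 ± 0.07). At the second sampling 25 of 30 were higher and none lower, beside 31.4% and 30.6% of all genes, with a median of 0.59. Isg15, a ubiquitin-like protein, was higher by 1.89 ± 0.19, Oasl2 by 1.57 ± 0.14 and Oas3 by 1.47 ± 0.14. With the score 20 rose at the second sampling, beside 18.9% of all genes, and 2 at the first, a share near the 6.19% of all genes. On day 44, 16 were higher in conventional than in SPF mice, beside 10.7% of all genes, Isg15 by 3.09 ± 1.08, Oas3 by 2.57 ± 0.71 and Oasl2 by 2.12 ± 0.37, and on day 16 Oasl2 (1.75 ± 0.41) and Eif2ak2 (0.72 ± 0.15) were, beside 0.473% of all genes.

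Of 14 genes of interferon receptors and signalling, 13 rose and 1 fell over days, beside 26.5% and 25.8% of all genes. At the second sampling 12 were higher and 1 lower, beside 31.4% and 30.6% of all genes. Socs3, an inhibitor of cytokine signalling, led both, at 1.01 ± 0.09 per 10 days and 1.51 ± 0.14, and Usp18 (0.83 ± 0.09) and Ifnar2 (0.60 ± 0.06) followed at the second sampling. Of 16 interferon gamma-induced genes, 9 were higher and 3 lower at the second sampling, beside 31.4% and 30.6% of all genes. Gbp2 was higher by 0.92 ± 0.12, Irgm2 by 0.81 ± 0.07 and Gbp7 by 0.80 ± 0.08. Genes of naive and quiescent T cells were split, with 7 of 14 higher and 6 lower at the second sampling, beside the same shares of all genes, 31.4% and 30.6%. With the score at the second sampling 1 of these 14 rose and 8 fell, beside 18.9% and 17.7% of all genes. Among those that fell were Lef1 (-0.25 ± 0.05), Foxo1 (-0.21 ± 0.05) and Foxp1 (-0.18 ± 0.04).

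Of the further Schlafen genes in the table, Slfn10-ps followed Slfn8 and Slfn9, with which it shares reads. It fell with the score at the second sampling, at -0.16 ± 0.04 (edgeR, adjusted p = 0.0017), and was not called between the samplings (-0.08 ± 0.05). Slfn14, known for its part in platelets and red cells, was higher at the second sampling by 0.81 ± 0.11 (adjusted p = 1.4e-11) and rose with the score then, by 0.40 ± 0.10 per point (adjusted p = 0.0013). Red cell markers moved beside it, with 10 of 10 called higher at the second sampling, beside 31.4% of all genes. Slfnl1 had at most 7 counts in a library and was not tested.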

How the data were processed

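Whole-blood RNA of 190 samples was sequenced after ribosomal and globin depletion with a stranded TruSeq kit, per the labels' protocols. The authors' deposited tables hold expected counts per gene, of which 2.86% are not whole, and TPM. Per the submitters' processing notes, DRAGEN and build GRCm39 were used; no source used here names the version, annotation release or strand setting. Expected counts were rounded and fitted with edgeR 4.0.16 in R 4.3.3 (TMM scaling over 190 libraries, robust quasi-likelihood test, Benjamini-Hochberg adjustment over all genes, called below 0.05). The low-count filter took a minimum of 10 counts and a total of 15 over 20 groups, which left 18192 of 55414 genes. SE is the log2 value divided by the root of F. The r values used log2(CPM + 1) after removing each group's mean.

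The members and gene lists were chosen with earlier results of these data known. The 7 members were named in each comparison, with the 3 nearest genes of each and the 3 largest called genes of a described list, except that 1 gene is not reported here. Alternatives were RLE size factors, DESeq2 1.42.0, no filter, covariates, sets of cohorts and samples left out. On simulated data 200 of 18192 genes were changed by 1 on the log2 scale. That change was per 10 days for the trend and per point for the score. The test found 98.0% for the trend over days, 88.5% between samplings, 96.0% for the score at the second sampling, 41.5% on day 16 and 34.5% on day 44. Only Slfn4 had a trend that steep, and no member had such a score slope at the second sampling. The shares for the trend and the score are thus not compared with the others. P-values measure the spread between mice, and repeated bleeding was not modelled.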

Additional observations from a re-analysis of the deposited data

Results flagged for a closer look

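In 13 of 140 groups of values for a member, the highest or lowest library stood far from the others by Dixon's 95% critical value. Independent normal values pass it in about 1 in 20 groups. These were CPM on a linear scale and the members share libraries, so the 13 are not set against that rate. Replicate 2 of cohort 9 on day 30 was highest in its group for Slfn4 at 834 CPM (others 201 to 389), Slfn2 at 230.8 CPM (others 109.3 to 131.02) and Slfn1 at 89.9 CPM (others 29.9 to 52.5). Replicate 8 of cohort 2 on day 40 was highest for Slfn4 at 2515 CPM (others 51.1 to 951), Slfn2 at 413 CPM (others 87.7 to 226) and Slfn3 at 5.17 CPM (others 1.25 to 2.66). Slfn2 also stood apart in replicate 5 of cohort 7 on day 23 at 309.5 CPM and in replicate 10 of cohort 6 on day 19 at 143.98 CPM, and Slfn4 in replicate 5 of cohort 3 on day 9 at 150.2 CPM. Slfn5 was low at 31.8 CPM in replicate 7 of cohort 2 on day 5 and high at 84.7 CPM in replicate 6 of cohort 5 on day 16. Slfn8 was low at 8.46 CPM in replicate 1 of cohort 8 on day 26, and Slfn9 high at 43.01 CPM in replicate 1 of cohort 2 on day 5.

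The change between the samplings differed among the 9 cohorts for 5 members in the F test above. The highest and the lowest cohort lay 4.40 apart on the log2 scale for Slfn4, 1.75 for Slfn1, 1.20 for Slfn2, 0.81 for Slfn5 and 0.78 for Slfn9.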

How the results depend on the processing

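Of 779 alternative values of single members, 628 kept their direction and side of the threshold, 75 lost a call, 9 gained one and 67 changed sign, in 15 of which the reported value had been called. Only Slfn2 over days, with cell composition as covariates, was called with the opposite sign. For changed signs and moved counts, the cause was not tested, and the share of all genes called under each alternative is not given. Below, T is the trend over days, L second minus first sampling, S2 and S1 the score slopes of the second and first sampling, and H16 and H44 conventional minus SPF mice on days 16 and 44. C5 is the change in cohort 5, all log2 values. With composition covariates the members called numbered 4 in T and in the test of any day, 1 in L, 8 instead of 23 over single cohorts, and 0 in S2, S1, C5 and H44. Signs then changed for Slfn1 in S2 (-0.0051), and for Slfn2 in T (-0.094), S2 (-0.00058), H16 (-0.28), H44 (-0.24), the SPF change (-0.097), the slope difference (0.033) and cohorts 1 (-0.13) and 3 (-0.028). They changed for Slfn3 in L (-0.036), S1 (-0.086) and C5 (-0.32), for Slfn4 in S1 (-0.11), the slope difference (0.067), cohorts 6 (-0.14) and 8 (-0.16) and the difference of changes (-0.38), and for Slfn5 in S1 (-0.032), C5 (-0.022) and H44 (-0.00018). For Slfn8 they were 0.15 in L, 0.044 in S2 and 0.16 in H44, and for Slfn9 0.10, 0.063 and 0.37. With globin and mitochondrial rRNA shares 4 members were called in T, 3 in S2 and 1 in H16. Signs changed for Slfn3 in S2 (0.0046), S1 (-0.041), C5 (-0.14) and H44 (-0.066), for Slfn8 in H16 (-0.105) and C5 (-0.17) and for Slfn9 in H16 (-0.10) and C5 (-0.20). In cohorts 1 to 4, 4 members were called in T and 3 in S2, with Slfn3 at -0.012 in T and Slfn8 at 0.041 in L. In cohorts 6 to 9, 0 were called in T and S2 and 2 in L, with Slfn8 at -0.051 and Slfn9 at -0.040 in T, Slfn3 at -0.11 and Slfn5 at -0.029 in L, and Slfn3 at 0.076 in S2 and -0.036 in S1. With the score as a covariate 2 were called in L, with Slfn3 at -0.018, Slfn8 at 0.12 and Slfn9 at 0.063. With scores of 2 or more against 1 or less, 2 were called in S2, and Slfn3 was at -0.10 in S1. With conventional scores of 0 or 0.5 alone, 0 were called in H44 and Slfn9 was at 0.039. DESeq2 called 2 in H16 and put Slfn3 at -0.025 in L and Slfn1 at -0.022 in cohort 7. RLE factors gave -0.025 and -0.021 for these and -0.0067 for Slfn3 in C5. Without the filter they were -0.031, -0.0080 and -0.0011, and Slfn3 was at -0.0023 in S1. Leaving out 1 SPF mouse kept 0 calls in H16, the SPF change and the difference of changes and gave 2 to 3 in H44, with Slfn3 at -0.083 to 0.18, Slfn8 at -0.28 to 0.0071 and Slfn9 at -0.22 to 0.038. The low end of each was without replicate 3 and the high end without replicate 5. The settings that leave out a cohort or a conventional mouse were chosen after seeing the data. Leaving out 1 cohort gave 4 to 5 calls in L, with Slfn3 at -0.014, -0.016 and -0.0088 without cohorts 3, 4 and 7 and Slfn8 at 0.049 and 0.011 without cohorts 6 and 8. Without replicate 8 of cohort 2 on day 40, Slfn3 was at -0.0082 in L. In T, 6 were called without replicate 2 of cohort 9 on day 30.

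Mice share replicate numbers between samplings, but their deviations correlated at -0.35 to 0.63 and only 13 of 95 samples matched their own number best, so the numbers were not taken to pair them. With the number as a replicate block, 7 members were called in T, 4 in L, 4 in C5, 3 in H44 and 0 in H16, as without it, and Slfn3 turned to -0.015 in L and -0.031 in H44. No mouse was repeated among the libraries of T or of H44, so a block there cannot show what pairing would change. Slfn3 had the lowest counts of the members, with a median of 86 per library.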

Other observations

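Other blood cell markers were also counted between the samplings, where 31.4% of all genes were called higher and 30.6% lower. At the second sampling 8 of 8 NK cell markers, 13 of 14 T cell markers and 3 of 7 tested eosinophil markers were lower, while 10 of 10 platelet markers, 6 of 12 monocyte markers and 3 of 6 basophil markers were higher. Of the opposite sign were 3 monocyte markers and 1 eosinophil marker. Skin and muscle markers were lower for 6 of 10 tested and higher for 1, with Col1a1 at -2.95 ± 0.26 and Col3a1 at -2.40 ± 0.22 on the log2 scale. Some members of the eosinophil list were at 0 in 2 of the 20 groups and of the skin and muscle list in 14, and the other 8 marker lists had no member at 0 in any group. These lists were not tested as sets.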
